A study of Caenorhabditis elegans with 6 samples.

Results

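Genes of the *C. elegans* molting pathway were followed here in worms fed a royal jelly fraction, namely 9 named genes: *bli-3*, *mlt-7*, *mlt-11*, *bli-5*, *lrp-1*, *nekl-2*, *mlt-8*, *mlt-9* and *mlt-10*. They were chosen by symbol, through the sequence name of each probe, and all 9 were found among the 24747 genes of the array, with 13 of its 43603 probes. Each of the 13 probes was well above background on every array, so that none of the genes was lost to the filter on dim probes. The worms were wild-type hermaphrodites of the Bristol N2 strain, fed UV-irradiated *Escherichia coli* OP50, and they were L4 larvae, in the last larval stage, when they were put for 24 h on plates without the fraction (control) or with pRJ-Fr.5. pRJ-Fr.5 is the methanol eluate of protease-treated royal jelly on a reversed-phase column. Its dose was 25 µg/ml in the methods, while the sample labels give the same number in mg/ml. Each group had 3 samples of total RNA from whole pooled worms, each on its own array. The labels do not say that the samples came from separate cultures, so that the p-values below measure the spread between these samples, which may be technical.

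A nematode grows through larval stages that each end in a molt, in which the epidermis makes a new cuticle, loosens it from the old one and sheds the latter. Many genes of this cycle rise and fall with every larval stage, and molting genes encode secreted matrix proteins, proteases and their inhibitors, enzymes that cross-link collagen, and the endocytic machinery of the epidermis. The last molt separates the L4 stage from the adult, and treatment began in L4 larvae. In whole-worm RNA, a smaller number of cells of a type and less RNA per cell cannot be told apart.

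Values are given as the log2 of a probe's signal relative to the 75th percentile of its array, averaged over the probes of a gene, so that 0 is the signal of a probe at that percentile. Probes differ in how they bind, and levels of different genes are therefore not compared. The arrays had 27725 to 34548 probes well above background, the lowest number being that of control replicate 3, and 16058 genes were tested with limma. A gene was called when its adjusted p was below 0.05, and 29% of all genes tested were called, 19.1% as lower with pRJ-Fr.5 and 9.88% as higher.

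Of the 9 molting genes, *mlt-8*, *mlt-9*, *mlt-10* and *bli-5* were lower with pRJ-Fr.5, at 42.8% to 59.1% of their control signal. These were 4 of 9 called in limma, beside 19.1% of all genes tested that were called lower, 9.88% that were called higher and 29% called in either direction. In 5 of the 9 there was no overlap between control and pRJ-Fr.5 arrays, all with lower pRJ-Fr.5 values, and such separation was found for 25.3% of all genes on the lower side, 23.5% on the higher side and 48.8% in either direction. The dual oxidase gene *bli-3*, the peroxidase gene *mlt-7*, the protease inhibitor gene *mlt-11*, the receptor gene *lrp-1* and the kinase gene *nekl-2* did not pass the threshold. The median log2 fold change of the 9 genes was -0.38, against 0.03 for all genes tested. Of 10 markers of the epidermis, the tissue that molts, 3 were lower and 7 did not pass the threshold. Their signals on the linear scale, relative to the 75th percentile, had a sum of 55.7 to 65.3 on control arrays and of 35.4 to 42.3 on pRJ-Fr.5 arrays. The collagen gene *dpy-13*, one of the 3, made up most of it. Since probes differ in how they bind, this sum follows its brightest probes and does not measure the amount of epidermis. On average 7 of the 10 markers were below control, as were 7393 of the 16058 genes tested. The markers *lin-26*, *elt-3* and *dpy-10* were above control (0.18, 0.08 and 0.06). The part of the epidermal markers in the decreases was not tested. The plot of the values by array shows all 9 genes on the same vertical span.

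**Figure D1:**
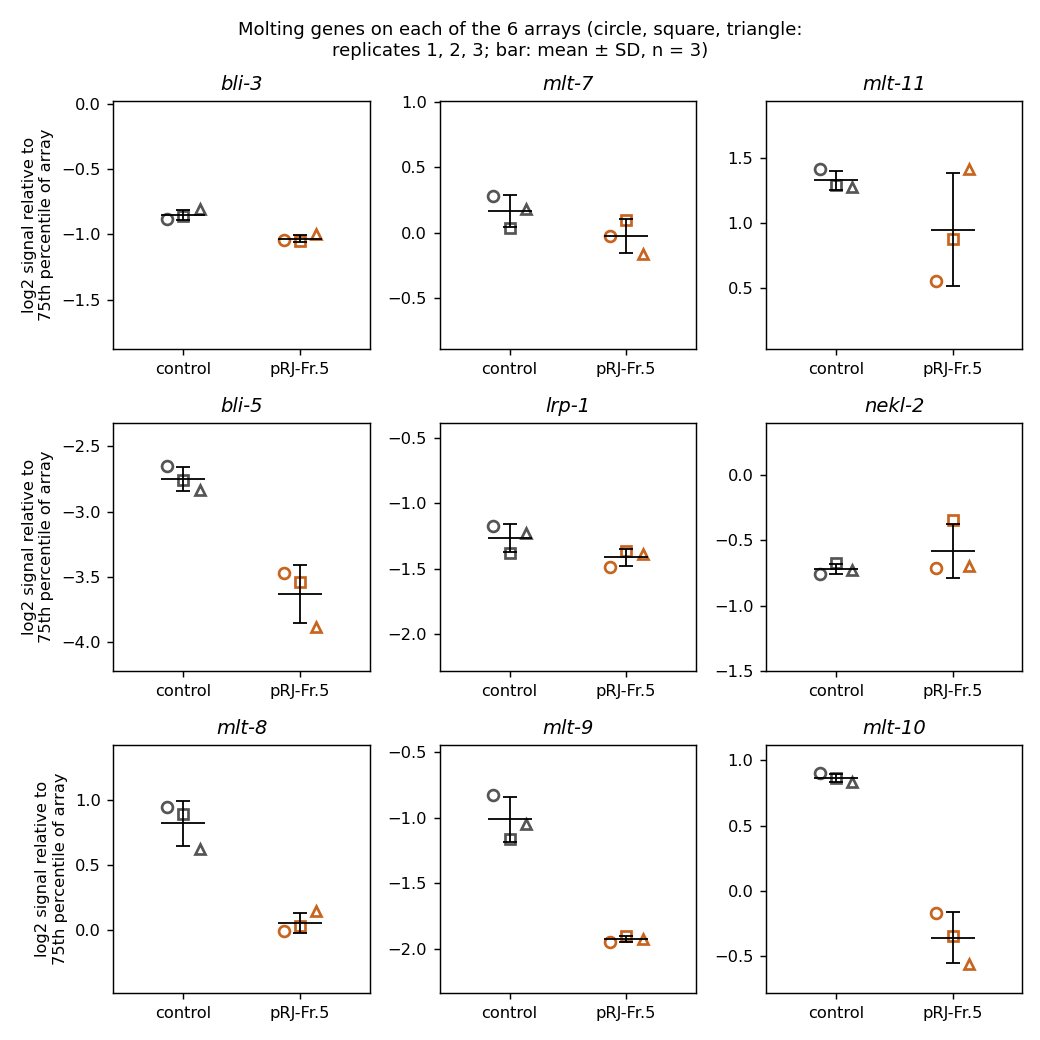
Signal of the 9 molting genes on each array, on a log2 scale with the 75th percentile of the array at 0 (vertical axes, all of the same span), for control and pRJ-Fr.5 worms; bars are the mean and SD of 3 arrays. The groups are separated by gaps of 0.48 to 1.00 for *mlt-8*, *bli-5*, *mlt-9* and *mlt-10*, by 0.12 for *bli-3*, and overlap for the other genes.

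The gene *mlt-10* (*C09E8.3*) had the largest decrease of the 9. It encodes a secreted, proline-rich protein with a domain of unknown function and is expressed by the epidermis in each molting cycle. The control arrays read 0.90, 0.86 and 0.83 in replicates 1, 2 and 3. The pRJ-Fr.5 arrays read -0.17, -0.35 and -0.56. The highest pRJ-Fr.5 array lay 1.00 below the lowest control array, and the control arrays were close to one another while the pRJ-Fr.5 arrays were spread more widely. The log2 fold change, pRJ-Fr.5 over control, was -1.22 ± 0.10 (SE, limma adjusted p = 0.00203), with a 95% interval of -1.47 to -0.98, so that the signal was 42.8% of control. Ordered from the lowest log2 fold change, *mlt-10* was at rank 74 of the 16058 genes. The gene had 2 probes, which differ in signal level, and their log2 fold changes were -1.26 and -1.19. On the linear scale, the brighter probe had a processed signal of 6546, 5373 and 5389 intensity units in control worms and of 2565, 2369 and 1990 with pRJ-Fr.5.

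The gene *mlt-9* (*F09B12.1*), named for the molting defect caused by its loss, was also lower with pRJ-Fr.5. Its control arrays read -0.83, -1.16 and -1.05, and its pRJ-Fr.5 arrays read -1.95, -1.90 and -1.93. For this gene the control arrays were the more variable, with an SD of 0.17 against 0.02 with pRJ-Fr.5, and the groups were 0.74 apart. The log2 ratio of pRJ-Fr.5 to control was -0.91 ± 0.09 (SE, limma adjusted p = 0.00203), with a 95% interval of -1.13 to -0.69. Its 4 probes carry the same sequence name, and their log2 fold changes were -0.74, -0.98, -0.97 and -0.98, in the order of the plot of the probes. All 6 probes of *mlt-9* and *mlt-10* were past the adjusted threshold when limma was run over probes, in which 16.2% of the 27514 probes were called lower.

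**Figure D2:**
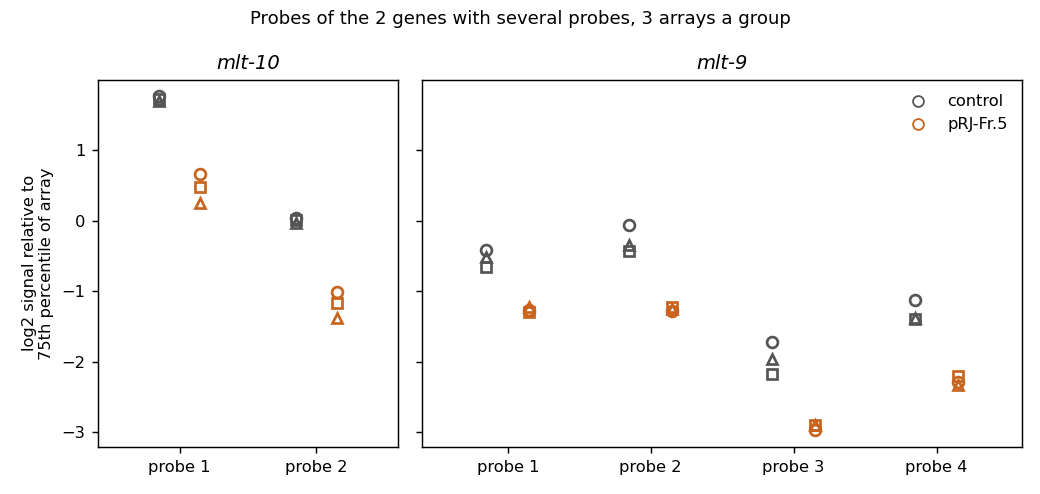
Signal of each probe of *mlt-10* (2 probes) and *mlt-9* (4 probes) on the 3 control and 3 pRJ-Fr.5 arrays, on a log2 scale with the 75th percentile of the array at 0; circles, squares and triangles are replicates 1, 2 and 3. For every probe the pRJ-Fr.5 arrays lie below all control arrays, with log2 fold changes from -1.26 to -0.74.

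The gene *mlt-8* (*W08F4.6*), also named for its molting phenotype, was measured by 1 probe. It read 0.95, 0.89 and 0.62 in control worms and -0.0050, 0.04 and 0.14 with pRJ-Fr.5. Control replicate 3 was the lowest of its group and pRJ-Fr.5 replicate 3 the highest of the other, and these are the arrays of slide 2, on which the groups were 0.48 apart. On slide 1, with 2 arrays of each group, the difference was -0.90. Over all arrays the log2 ratio of pRJ-Fr.5 to control was -0.76 ± 0.10 (SE, limma adjusted p = 0.0024), with a 95% interval of -0.997 to -0.52.

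The matrix and cuticle also need protease inhibitors, and the 2 members with Kunitz-type inhibitor domains gave different patterns. The gene *bli-5* (*F45G2.5*), whose loss causes blisters of the cuticle, had control values of -2.65, -2.76 and -2.83. Its pRJ-Fr.5 values were -3.47, -3.54 and -3.88, all below the control arrays. The log2 ratio of pRJ-Fr.5 to control was -0.88 ± 0.12 (SE, limma adjusted p = 0.00257), with a 95% interval of -1.17 to -0.60. Its probe was the dimmest of the 13, with 113 to 308 intensity units, and the change was -0.62 with the normexp background correction, still past the threshold. The gene *mlt-11* (*W01F3.3*), which encodes a secreted protein with many such domains, had control values of 1.41, 1.29 and 1.28. With pRJ-Fr.5 it read 0.56, 0.88 and 1.41. Replicates 1 and 2 of the pRJ-Fr.5 group lay below all control arrays, whereas replicate 3 was level with the highest control array, so that the groups overlapped. The log2 ratio of -0.38 ± 0.20 (SE) was not past the threshold (limma adjusted p = 0.196), with a 95% interval of -0.86 to 0.11. Without pRJ-Fr.5 replicate 3 it was -0.61 (adjusted p = 0.0122 from limma), and without pRJ-Fr.5 replicate 1 it was -0.18 (adjusted p = 0.418 from limma). Replicate 3 is on slide 2, and within slide 1 the difference was -0.63, whereas within slide 2 it was 0.14. A single probe represents *mlt-11*, for which the RefSeq annotation lists several transcripts, and which of them it reads was not tested.

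Cross-linking of the new cuticle depends on a dual oxidase, BLI-3, which supplies hydrogen peroxide, and on MLT-7, a heme peroxidase that uses it to join tyrosine residues of collagen. The gene *bli-3* (*F56C11.1*) read -0.88, -0.86 and -0.81 in control worms and -1.05, -1.05 and -0.9999 with pRJ-Fr.5. The groups did not overlap, but the difference was small, with a log2 fold change of -0.18 ± 0.06 (SE) and a 95% interval of -0.32 to -0.05, which is not adjusted for the number of genes. Its adjusted p of 0.0533 from limma was just above the threshold, which the gene passed with the 75th percentile of kept probes (-0.21, adjusted p = 0.0213 from limma) and in the methods' t-test run across all genes (adjusted p = 0.0251). The gene *mlt-7* (*ZK430.8*) read 0.28, 0.04 and 0.18 in control worms and -0.02, 0.10 and -0.16 with pRJ-Fr.5. These groups overlapped, and the log2 ratio of -0.19 ± 0.09 (SE, limma adjusted p = 0.165) had a 95% interval of -0.42 to 0.03.

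The last pair of members acts in the uptake of material by the epidermis. LRP-1 is a large receptor of the LDL receptor family, related to mammalian megalin, at the apical surface of the epidermis, and NEKL-2 is a NIMA-related kinase that acts in clathrin-mediated endocytosis there. The gene *lrp-1* (*F29D11.1*) read -1.18, -1.38 and -1.23 in control worms and -1.49, -1.36 and -1.39 with pRJ-Fr.5. These groups overlapped, since control replicate 2 lay between the pRJ-Fr.5 arrays. The log2 ratio of pRJ-Fr.5 to control was -0.15 ± 0.08 (SE, limma adjusted p = 0.176), with a 95% interval of -0.33 to 0.03, and -0.085 with normexp. The gene *nekl-2* (*ZC581.1*) had control values of -0.76, -0.67 and -0.73 and pRJ-Fr.5 values of -0.71, -0.34 and -0.69. Of its pRJ-Fr.5 arrays, replicate 2 stood above the others, which were within the range of the control group. The log2 ratio of pRJ-Fr.5 to control was 0.14 ± 0.11 (SE, limma adjusted p = 0.358), with a 95% interval of -0.12 to 0.39. Without pRJ-Fr.5 replicate 2 it was 0.02.

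**Figure D3:**
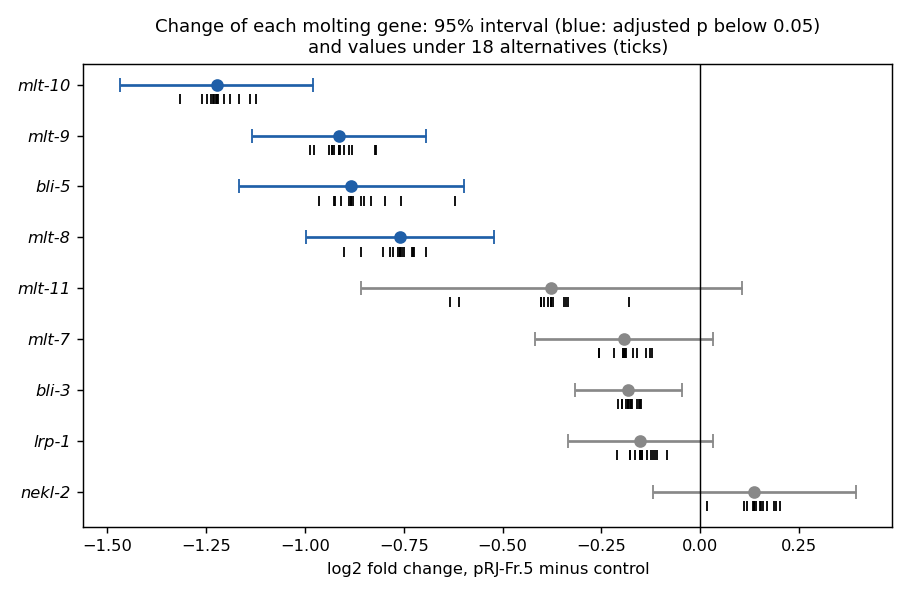
Log2 fold change of each molting gene, pRJ-Fr.5 minus control (horizontal axis), from limma with its 95% interval, in blue where the adjusted p was below 0.05; ticks under each point are the values under 18 alternatives. The intervals of *mlt-10*, *mlt-9*, *bli-5* and *mlt-8* lie between -1.47 and -0.52, and their ticks stay between -1.32 and -0.62.

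In an exact permutation test over the 6 arrays (two-sided), the smallest p that 3 arrays against 3 can give is 0.1. This value was reached by *mlt-8*, *mlt-9*, *mlt-10*, *bli-5* and *bli-3*, while the p was 0.2 for *mlt-7* and *lrp-1* and 0.4 for *mlt-11* and *nekl-2*. In all 18 alternatives, including 1 array left out at a time, the slide as a block and slide 1 alone, the decreases of *mlt-8*, *mlt-9*, *mlt-10* and *bli-5* were past the adjusted threshold, with a highest adjusted p of 0.0262 from limma and the methods' t-test. Within slide 1 the differences of these genes were -0.90, -0.93, -1.14 and -0.80 in this order, and within slide 2, which held 1 array of each group, they were -0.48, -0.88, -1.39 and -1.05.

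A further 68 genes linked to molting were listed by role. The list was not limited to genes with a shown role in molting, and its 13 *mltn* genes were taken by their symbol. Of the 68 genes, 66 were on the array and 53 were tested. Past the adjusted threshold in limma, 23 of the 53 were lower and 2 were higher, and 28 did not pass it. Over all genes tested, 19.1% were called lower and 9.88% higher. Their median log2 fold change was -0.18, beside 0.03 for all genes tested. When probes detected in all arrays of 1 group were also kept, 57 were tested, with 18 lower and 2 higher, where 15.4% of all genes tested were called lower and 7.39% higher. The number of calls moved with single arrays, and it was 16, all of them lower, without any one of control replicates 1, 2 and 3 or without pRJ-Fr.5 replicate 2.

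Closest to *mlt-10* are the MLT-10-like genes of its family. Of 13 such *mltn* genes, 11 were on the array and 2 were detected on all arrays, and both were lower. This count of only 2 genes stands beside 19.1% of all genes tested that were called lower. The gene *mltn-12* read -1.50, -1.79 and -1.65 in control worms and -2.76, -2.55 and -2.81 with pRJ-Fr.5, so that the log2 fold change was -1.06 (adjusted p = 0.00203 from limma). The gene *mltn-9*, which was dim with a control mean of -4.28, was lower by a log2 fold change of -0.39 (adjusted p = 0.00396 from limma). With normexp its value was -0.28 (adjusted p = 0.0205 from limma). Of the 9 others on the array, 6 were not well above background on any array. The gene *mltn-10* was above it on 2 control arrays and on 0 pRJ-Fr.5 arrays, and *mltn-1* and *mltn-2* on 2 control arrays and 3 pRJ-Fr.5 arrays. When probes detected in all arrays of 1 group were kept, *mltn-1* and *mltn-2* had log2 fold changes of 0.42 and 0.20. Neither passed the threshold (adjusted p = 0.269 and 0.199 from limma), and both were kept only through the pRJ-Fr.5 group. Their direction therefore gives no result about the family.

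Of 6 partners and further peroxidases of the oxidase pathway, 4 were lower and 1 was higher, beside 19.1% and 9.88% of all genes tested. The gene *doxa-1*, which encodes the maturation factor of dual oxidases, was lower, with a log2 fold change of -0.45 (adjusted p = 0.00705 from limma), or -0.285 with normexp (adjusted p = 0.0411 from limma). The tetraspanin gene *tsp-15*, whose product acts in the same complex as BLI-3, had a value of 0.10 (adjusted p = 0.393 from limma) that was -0.013 with normexp. Of the peroxidase genes of the list, *skpo-2* was lower by a log2 fold change of -0.89 (adjusted p = 0.0023 from limma), and *skpo-1* was higher, with 0.25 (adjusted p = 0.0252 from limma). The increase of *skpo-1* lost the threshold when arrays were shifted to their median (adjusted p = 0.0524 from limma), and in 7 other alternatives, among them each control array left out.

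The NEKL kinases of the epidermis work with ankyrin-repeat proteins, NEKL-2 with MLT-2 and MLT-4 and NEKL-3 with MLT-3. All 4 genes of these complexes in the list were below control on average, as were 7393 of the 16058 genes tested. The gene *nekl-3* read 0.16, 0.13 and 0.19 in control worms and -0.03, -0.11 and -0.11 with pRJ-Fr.5, so that the log2 fold change was -0.24 (adjusted p = 0.0216 from limma). The value of *mlt-4* was -0.50 (adjusted p = 0.0235 from limma). For *mlt-2* and *mlt-3* the values were -0.18 and -0.19 (adjusted p = 0.113 and 0.15 from limma). The calls of *nekl-3* and *mlt-4* were lost in 9 and 10 of 18 alternatives. These 2 of 4 genes stand beside 19.1% of all genes tested that were called lower. Among genes of endocytosis and secretion, *dab-1*, which encodes the adaptor that binds the tail of LRP-1, was higher, with a log2 fold change of 0.20 (adjusted p = 0.0487 from limma), a call that was lost in 11 of 18 alternatives, the shift to the median among them. The 4 others, *chc-1* of clathrin among them, did not pass. This 1 call among 5 genes stands beside 9.88% of all genes tested that were called higher.

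Among transcription factors, the nuclear receptor genes *nhr-23* and *nhr-25*, regulators of the molting cycle, did not pass the threshold. The values of *nhr-23* were -3.76, -3.68 and -3.50 in control worms and -3.60, -3.63 and -3.72 with pRJ-Fr.5, with a log2 fold change of -0.0030 (adjusted p = 0.981 from limma) that changed sign in 8 alternatives. For *nhr-25*, pRJ-Fr.5 replicates 2 and 3 read -1.78 and -1.66, and replicate 1 read -2.32, within the control range of -2.39 to -2.30. Its log2 fold change was 0.43 (adjusted p = 0.0942 from limma) and 0.63 without pRJ-Fr.5 replicate 1 (adjusted p = 0.00197 from limma). It was 0.24 without control replicate 3 (adjusted p = 0.414 from limma) and 0.13 on slide 1 alone (adjusted p = 0.665 from limma). The zinc finger gene *bed-3* was lower, with -0.82 (adjusted p = 0.00203 from limma), as was *blmp-1*, which encodes a homolog of Blimp-1, with -0.49 (adjusted p = 0.00637 from limma). With the normexp background correction these changes were -0.48 and -0.25, both past the threshold. The call of *blmp-1* was lost when dimmer probes were kept. Of 9 transcription factor genes in the list, 6 were tested, and these 2 were called lower, beside 19.1% of all genes tested.

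Genes of proteases and of hedgehog-related and patched-related proteins were a further part of the list, the latter being secreted or membrane proteins of the epidermis. The astacin metalloprotease genes *nas-36* and *nas-6* had log2 fold changes of -0.91 and -0.88 (adjusted p = 0.00203 for both, from limma). Of the 8 genes of proteases and processing, 4 were lower, where 19.1% of all genes tested were called lower. The astacin gene *nas-37*, which like *nas-36* is needed to shed the old cuticle, had a value of 0.15 (adjusted p = 0.247 from limma). Of the 6 hedgehog-related and patched-related genes tested, 5 were lower, beside the same 19.1% of all genes. The largest change was that of *qua-1*, which read -1.13, -1.37 and -1.15 in control worms and -2.20, -2.26 and -2.68 with pRJ-Fr.5, so that the log2 fold change was -1.16 (adjusted p = 0.00215 from limma). That of *hog-1* was -1.02 (adjusted p = 0.00203 from limma). Of 7 other genes with molting phenotypes, 2 were lower, again beside 19.1% of all genes. These were *acn-1*, a homolog of angiotensin-converting enzyme without its active site (-0.80, adjusted p = 0.00203 from limma), and the intermediate filament gene *ifb-1* (-0.42, adjusted p = 0.0432 from limma, lost in 13 of 18 alternatives).

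**Figure D4:**
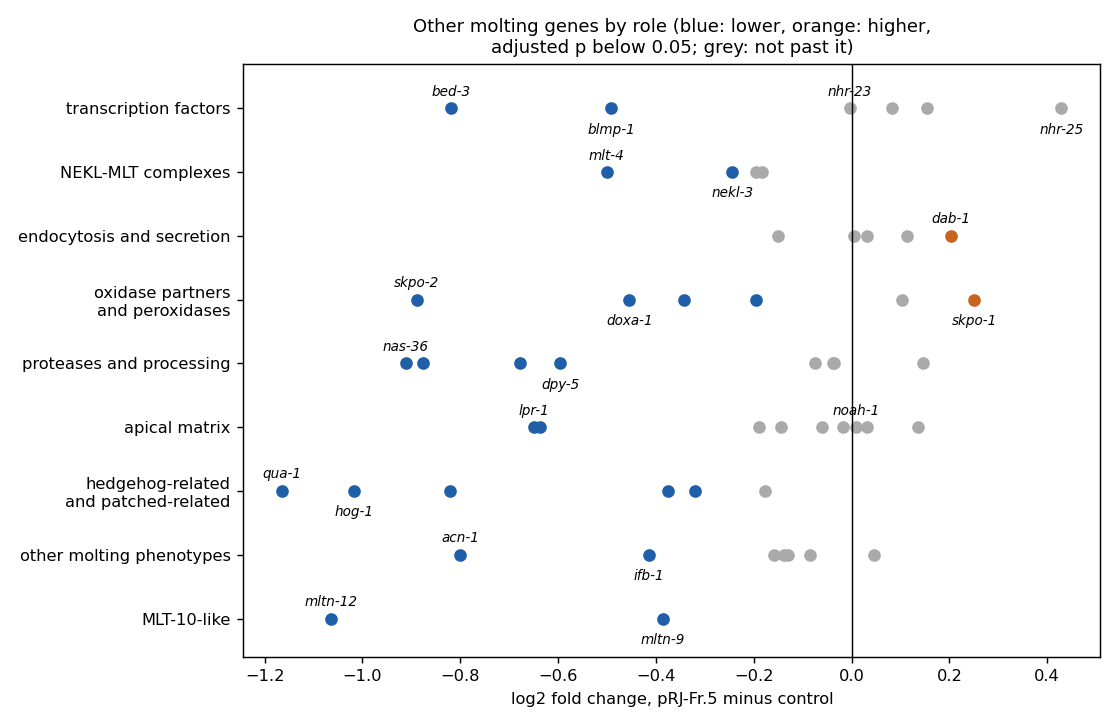
Log2 fold change of the 53 other molting genes tested, pRJ-Fr.5 minus control (horizontal axis), in rows by role; each point is a gene, blue where it was lower and orange where it was higher past an adjusted p of 0.05. The values run from -1.16 for *qua-1* to 0.43 for *nhr-25*.

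Genes of the apical matrix, which covers the epidermis while a cuticle is replaced, came last in the list. Of 9 tested, the lipocalin genes *lpr-1* and *lpr-3* were lower, with log2 fold changes of -0.65 and -0.64 (adjusted p = 0.0212 and 0.0393 from limma), and 7 did not pass. This count of 2 of 9 is near the 19.1% of all genes tested that were called lower. Neither of the 2 passed in the methods' t-test, or with any 1 control array or pRJ-Fr.5 replicate 2 left out.

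Markers of other tissues and of the adult cuticle were measured beside these genes. Of 10 epidermal markers, all were detected on every array and 3 were lower, *rol-6*, *dpy-13* and *che-14*, while the epidermal transcription factor genes *lin-26*, *elt-1* and *elt-3* did not pass the threshold (0.18, -0.05 and 0.08). Of 4 adult cuticle collagens, *bli-1* and *bli-2* were lower by log2 fold changes of -1.60 and -1.51, *col-7* by -0.23, and *col-19* had a value of -0.06. Their sum was 51.4 to 58.1 in control worms and 45.1 to 48.3 with pRJ-Fr.5. It follows the bright probes of *col-7* and *col-19* and says little about *bli-1* and *bli-2*. All 4 sperm markers tested were lower (median -0.57), with sums of 19 to 20 against 12.6 to 15. The sperm sum likewise follows its brightest marker, *msp-3*. The marker lists in which 0 genes passed the adjusted threshold in limma were those of oocytes and germline, body muscle, neurons and yolk. Over all genes tested, 29% were called, but a count of 0 follows here from which lists are put together. Of their 27 markers, 7 had an unadjusted p under 0.05, and 1 passed in the methods' t-test. On average 11 of the 27 were below control, beside 7393 of the 16058 genes tested. Of the 8 oocyte and germline markers, 0 were below control, and their median was 0.14. Of 7 intestinal markers, 2 were lower, 1 of 5 pharyngeal markers was higher, and 1 of 2 glial markers tested was lower. All these marker counts are of few genes and stand beside 19.1% of all genes called lower and 9.88% called higher. The part of epidermal content or of stage in the decreases of the molting genes was not tested.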

How the data were processed

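Total RNA of 3 control and 3 pRJ-Fr.5 samples was labeled with Cy3 and hybridized to 6 one-color Agilent arrays on 2 slides (slide 1 with 2 of each group, slide 2 with 1 of each). Spot intensity values were deposited by the authors as given by Agilent Feature Extraction 10.7.1.1, background-subtracted within the array and not normalized between arrays, together with quality flags of 0 or 1. They also deposited a table with a linear ratio, the processed signal over the array's 75th percentile. Above a ratio of 0.1, it differed from the same quantity computed here by at most 0.0226 on the log2 scale.

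After removal of control spots and outliers, duplicate spots were averaged, and signals were scaled as in the methods, the 75th percentile of an array being set to 0 on the log2 scale. The filter kept 27514 probes with the detection flags set on each of the 6 arrays, and probes were averaged per gene. Symbols came from RefSeq (WBcel235) through sequence names; the arrays were annotated on another build, and no coordinates are given. Probe, promoter and protein sequences were not used here. No spot was saturated. The comparison used limma (version 3.58.1, R version 4.3.3) without a block, with Benjamini-Hochberg adjustment over all genes or probes and a threshold of 0.05. The number of arrays limits the precision. In a simulation of this comparison over 16058 genes, limma called 171 of 200 genes changed by a log2 value of 1, and 10 unchanged genes. The simulation changed a far smaller share of genes than the 29% called in the data. Its changes were also larger than the decreases of *mlt-8*, *mlt-9* and *bli-5*. It therefore does not give the share of changes of their size that limma would call in these data.

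The members and the lists were chosen with earlier results of these data known. Named were the 9 members, the 2 largest changes past the threshold without overlap in each role, direct partners of members, and marker genes; *skpo-1*, *nas-37*, *chc-1* and the genes of the apical matrix in the closing section were named after their values were seen. Alternatives were another detection filter or none, normexp with an offset of 50 on median signals, quantile normalization, a shift to the median or to the 75th percentile of kept probes, the deposited ratio table, the brightest probe of a gene, the methods' t-test, the replicate number and the slide as blocks, and each array left out. Slide 1 alone was added after the data had been seen. Arrays of one group differed by a median absolute log2 value of at least 0.086, so that none was a copy of another.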

Additional observations from a re-analysis of the deposited data

How the results depend on the processing

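For the 9 molting genes, 158 of 162 values under the 18 alternatives kept their direction and their side of the threshold, and 4 became significant. These were *bli-3* with the 75th percentile of kept probes (-0.21) and in the methods' t-test (-0.18), and *mlt-11* without pRJ-Fr.5 replicate 3 (-0.61) and on slide 1 alone (-0.63). The number of molting genes called was 4 or 5 in the 18 alternatives, and that of their probes 8 or 9 in 17, since the choice of the brightest probe gives no count of probes. The cause of the changes below was not tested. Without a filter on dim probes, 2657 genes in all (against 4651) and 15 other molting genes (against 25) were called; more genes were then tested. On slide 1 alone, 2801 genes were called, with fewer arrays. With 1 array left out, all genes called ranged from 2741 to 5406, the other molting genes from 16 to 24, and the log2 fold changes of *mlt-11*, *bli-5*, *mlt-8*, *mlt-9* and *mlt-10* from -0.61 to -0.18, -0.96 to -0.76, -0.86 to -0.69, -0.99 to -0.82 and -1.32 to -1.12. For *bli-3* the range was -0.20 to -0.16.

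With the replicate number as a block, 3189 genes in all and 16 other molting genes were called, all of these lower, and no call among the 9 molting genes changed. Arrays with the same number did not deviate together, with correlations of -0.22, 0.06 and -0.01 of their deviations from the group means, against -0.12 to 0.13 for different numbers, and the numbers were not taken as pairs. For 23 other named genes, 336 of 414 values kept direction and side, 68 lost the threshold, 1 passed it and 9 changed sign. These 9 were *nhr-23* with normexp (0.0066), quantile normalization (0.0096), the shift to the median (0.0297), the deposited table (0.0052), the brightest probe (0.043) and slide 1 alone (0.11), *nhr-23* without control replicate 3 (0.072) or pRJ-Fr.5 replicate 3 (0.032; range with 1 array left out -0.061 to 0.072), and *tsp-15* with normexp (-0.013). The scalings moved the median of all genes to between 0.00069 and 0.059.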

Other observations

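The pRJ-Fr.5 arrays were not alike for all molting genes. For *mlt-11* and *mlt-8*, replicate 1 was the lowest of the pRJ-Fr.5 arrays and replicate 3 the highest, which is 2 of the 9 molting genes (22.2%), beside 22.3% of all genes tested. The same order was found for 9 of 9 apical matrix genes tested and for 5 of 10 epidermal markers. The zona pellucida-domain genes *noah-1* and *noah-2* read -0.11, 0.40 and 0.85 and 0.51, 1.06 and 1.50 in pRJ-Fr.5 replicates 1, 2 and 3, where the control arrays lay between 0.32 and 0.42 for *noah-1* and between 0.94 and 1.18 for *noah-2*. The larval cuticle collagen gene *dpy-7* read -1.61, -1.13 and -0.82, against -0.84 to -0.69 in control worms. For *mlt-7*, *mlt-10* and *bli-5*, and for the collagen genes *rol-6*, *bli-1* and *bli-2*, replicate 3 was instead the lowest pRJ-Fr.5 array (-2.46 for *bli-1*, where replicates 1 and 2 read -1.52 and -1.58). Replicate 3 was thus the lowest in 3 of the 9 molting genes (33.3%), beside 46.5% of all genes tested. The genes named here were chosen after their values had been seen, and the cause was not tested.

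Likeness of profiles was measured as the root mean square difference between genes over the 6 arrays, after each gene's own mean had been subtracted. The profiles closest to *mlt-10* were those of the cuticle collagen gene *col-17* (0.055), *lips-9* (0.059) and *bus-5* (0.061), with log2 fold changes of -1.20, -1.22 and -1.13. The closest to *mlt-8* were *F01D5.6* (0.052), *F15B9.8* (0.058) and *clec-64* (0.069), with -0.78, -0.81 and -0.66. Since the values were not scaled, a small difference by itself requires a similar log2 fold change. Regulation in common was not tested. Among the 9 molting genes, the pair closest in profile among those called was *mlt-8* and *mlt-9* (0.14), and *mlt-10* lay 0.18 from *bli-5*.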
